A study of Mus musculus with 6 samples.

Results

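Dorsal root ganglia were compared between mouse embryos with a conditional deletion of the miR-183-96-182 cluster (miR_cKO) and controls. The small heat shock proteins Hspb1, Hspb2, Hspb6, Hspb8, Hspb11 and Cryab and the co-chaperone Bag3 are 7 of 24264 genes measured there. They were chosen by symbol as a family, with the measured low level of Hspb8 in miR_cKO already known. The difference between miR_cKO and control is therefore given for them as a description, and nothing is supported with it. Small heat shock proteins are chaperones that share an alpha-crystallin domain, assemble into large oligomers and bind unfolding proteins without using ATP. Bag3 is a co-chaperone that joins the family member Hspb8 to the Hsp70 machinery and directs misfolded clients to autophagy. In humans, mutations in HSPB1 and HSPB8 cause inherited neuropathies of long axons, and mutations in BAG3 and CRYAB cause muscle disease, so the family is followed in both neurons and muscle. The symbol Hspb11 is a historical name. The gene encodes a subunit of intraflagellar transport complex B, which carries cargo along cilia, and it is kept here because the rule takes it by name.

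RNA was sequenced from lumbar dorsal root ganglia of mouse embryos at E12.5, in 3 miR_cKO and 3 control libraries. The miR_cKO embryos carried Wnt1-Cre and miR-183-96-182-flox/flox, a floxed microRNA cluster that is cut out where Wnt1-Cre acts. That driver is active in the dorsal neural tube and the neural crest, from which sensory neurons and their glia arise, whereas lumbar muscle has another origin. Controls 1 and 3 were titled Wnt-Cre and control 2 was titled WT, so the Cre was shared by all libraries but control 2, and the background of all was mixed C57/Bl6 x 129/SvEv. The sources used here do not say whether embryos were pooled, so p-values measure the spread between these libraries. Levels are RPKM, reads scaled to transcript length in kilobases and to the mapped reads of the library.

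The libraries held an estimated 20.9 to 22.6 M reads (M, mega) in miR_cKO and 20.3 to 24.4 M reads in control. Sensory neuron genes, 12 of 13 listed being measured, summed to 1886 to 2713 RPKM in miR_cKO and 1912 to 2404 RPKM in control, and 8 of 8 glial and Schwann precursor genes to 886 to 985 RPKM in miR_cKO and 832 to 1103 RPKM in control. Mir183, Mir96 and Mir182 were listed at 0 in all 6 libraries, which checks nothing in polyadenylated RNA. Xist was at 96.0 RPKM in miR_cKO 1 and at no more than 0.0890 RPKM in the 5 other libraries. Controls 2 and 3 stood apart in muscle RNA, with 17 skeletal muscle genes summing to 32.0, 36.3 and 46.7 RPKM in miR_cKO 1 to 3 and to 33.7, 209 and 159 RPKM in controls 1 to 3. Several members are abundant in muscle, Hspb2, Cryab, Hspb1 and Bag3 among them, so each of these is given with and without these libraries. Not every member was higher in controls 2 and 3 than in control 1. Hspb8 was at 9.89, 7.90 and 10.5 RPKM and Hspb6 at 1.79, 1.48 and 1.6 RPKM in controls 1 to 3. In bulk tissue, fewer cells of a type and less RNA per cell cannot be told apart.

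The deleted microRNAs are shown because their seeds set which messages they bind. The mature sequences are from RefSeq (GRCm38.p6, the build of mm10; chromosome 6, minus strand, 30169711 to 30169732 for miR-183-5p, 30169506 to 30169528 for miR-96-5p and 30165962 to 30165986 for miR-182-5p), with the seed, bases 2 to 8, in capitals.
mmu-miR-183-5p: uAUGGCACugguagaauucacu
mmu-miR-96-5p: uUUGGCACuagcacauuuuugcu
mmu-miR-182-5p: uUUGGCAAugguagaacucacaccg
The 3 seeds are similar and none is identical to another. Matches of 7 bases to them were looked for in the 3 prime UTR of each gene's main coding transcript (GENCODE M21, mm10). The letters were GTGCCAT or TGCCATA for miR-183, GTGCCAA or TGCCAAA for miR-96 and TTGCCAA or TGCCAAA for miR-182, so these last share a site. The 3 prime UTR was 840 bases long in Hspb8, 807 in Hspb6, 585 in Bag3, 201 in Hspb2, 141 in Cryab and 133 in Hspb1, and 0 matches were found in these 6. In comparison, 32.8% of 11038 tested genes with a 3 prime UTR held a match, and their median UTR length was 1036 bases. For Hspb11 no 3 prime UTR was analysed here.

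Promoters of stress-induced chaperone genes carry heat shock elements, arrays of the unit GAA in alternating direction that are bound by heat shock factor. The windows from 250 bases before to 50 bases after the start (RefSeq, GRCm38.p6) were searched for pairs of units, GAANNTTC and TTCNNGAA. Each of these reads the same on both strands. RefSeq windows were found for Hspb1, Hspb6, Hspb8, Hspb11 and Bag3, with 6 windows because Hspb6 has 2 starts. Hspb1, Hspb6, Hspb8 and Bag3 held GAANNTTC, which 7.86% of 32851 promoter windows hold. No member window held TTCNNGAA, found in 8.52% of windows, or 3 alternating units, found in 0.60%. The pair of Bag3 ended on the last base of its window, so a further unit just after it could not have been found. The Hspb8 window (chr5:116422815-116423114, minus strand) is printed whole because this is the member whose groups did not overlap. Its pair of units, in capitals, begins at position 3, the start being counted as 1.
Hspb8: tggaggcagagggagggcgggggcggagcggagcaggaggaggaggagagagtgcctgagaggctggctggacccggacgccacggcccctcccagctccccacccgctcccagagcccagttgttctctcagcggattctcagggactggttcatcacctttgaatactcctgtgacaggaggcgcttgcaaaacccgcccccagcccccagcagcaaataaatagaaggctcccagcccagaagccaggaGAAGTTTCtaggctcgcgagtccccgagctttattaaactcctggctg
The pairs of the other genes are shown with up to 11 bases on either side, the number in brackets being the position of the pair's first base from the start, counted as 1 at the start itself and negative before it.
Hspb1 (-117): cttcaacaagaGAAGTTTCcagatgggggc
Hspb1 (-97): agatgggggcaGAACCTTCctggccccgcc
Hspb6 (-120): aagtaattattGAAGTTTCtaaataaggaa
Bag3 (43): ggatgggaccaGAAGTTTC
These lie on the plus strand, the Hspb1 pairs at chr5:135887802-135887809 and chr5:135887822-135887829, the Hspb6 pair at chr7:30553181-30553188 and the Bag3 pair at chr7:128523625-128523632. In Hspb8, Bag3, Hspb6 and in the Hspb1 pair at -117, the 8 letters were identical, GAAGTTTC. This run, which was singled out after it was seen, occurs on either strand in 1.21% of the windows. A match is a description of these letters and not of binding.

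**Figure D1:**
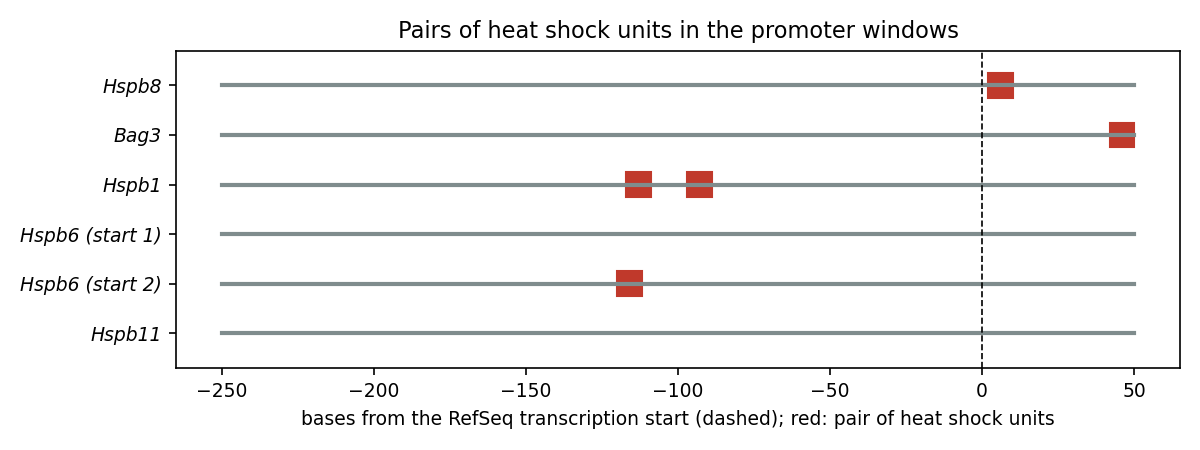
Position of pairs of heat shock units (red boxes, 8 bases wide) in the promoter windows of Hspb8, Bag3, Hspb1, Hspb6 (2 starts) and Hspb11, in bases from the RefSeq transcription start. Hspb8 and Bag3 have their pair after the start, at 3 and 43, Hspb1 and the second start of Hspb6 have theirs before it, at -117, -97 and -120, and Hspb11 and the first start of Hspb6 have none.

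Hspb8 was the member with separate groups. Hspb8 (mm10 chromosome 5, 116408491 to 116422864, minus strand, ENSMUSG00000041548.4) encodes the small heat shock protein that binds Bag3. Its level was 5.36, 4.55 and 4.04 RPKM in miR_cKO 1 to 3, against 9.89, 7.90 and 10.5 RPKM in controls 1 to 3. Every miR_cKO library lay below every control, with a gap between 5.36 RPKM in miR_cKO 1 and 7.90 RPKM in control 2. The means were 4.65 ± 0.670 RPKM in miR_cKO and 9.43 ± 1.36 RPKM in control (SD, n = 3 each), a ratio of 0.493. On the log2(RPKM + 1) scale the change was -0.88 (SE 0.13). These values rested on 221, 185 and 154 reads in miR_cKO 1 to 3 and on 393, 351 and 388 reads in controls 1 to 3. Counting error alone gave 95% Poisson intervals of 4.68 to 6.12 RPKM for miR_cKO 1 and 7.09 to 8.77 RPKM for control 2, the nearest pair, and these do not overlap. The interval of control 2 also did not overlap those of control 1 (8.94 to 10.9 RPKM) and control 3 (9.48 to 11.6 RPKM). Intervals that do not overlap therefore occurred within a group too, and do not by themselves set the groups apart.

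In the fit across 13118 genes Hspb8 ranked 31 by p and did not pass (limma adjusted p = 0.129). Of the 6 members tested, 0 passed, where 0.061% of all genes passed, 7 higher and 1 lower, and Hspb8 alone had an unadjusted p under 0.05. Hspb8 was 1 of 7 members with all miR_cKO libraries below all controls, which was so for 6.24% of the genes tested. Since the family was taken with Hspb8 known, nothing is read from these counts. Over the alternatives tried, the log2 change of Hspb8 ran from -1.01 to -0.80. It was -0.97 without miR_cKO 1 and -1.01 with the muscle genes as covariate (SE 0.17). Since the muscle sum was high only in controls 2 and 3, the covariate fit comes close to leaving these controls out. With controls 2 and 3 left out it was -0.95 (SE 0.18), which sets the 3 miR_cKO libraries against control 1 alone, with the spread taken from miR_cKO and control 1 assumed to vary alike. It did not pass in any of these fits (limma adjusted p from 0.125 to 1).

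**Figure D2:**
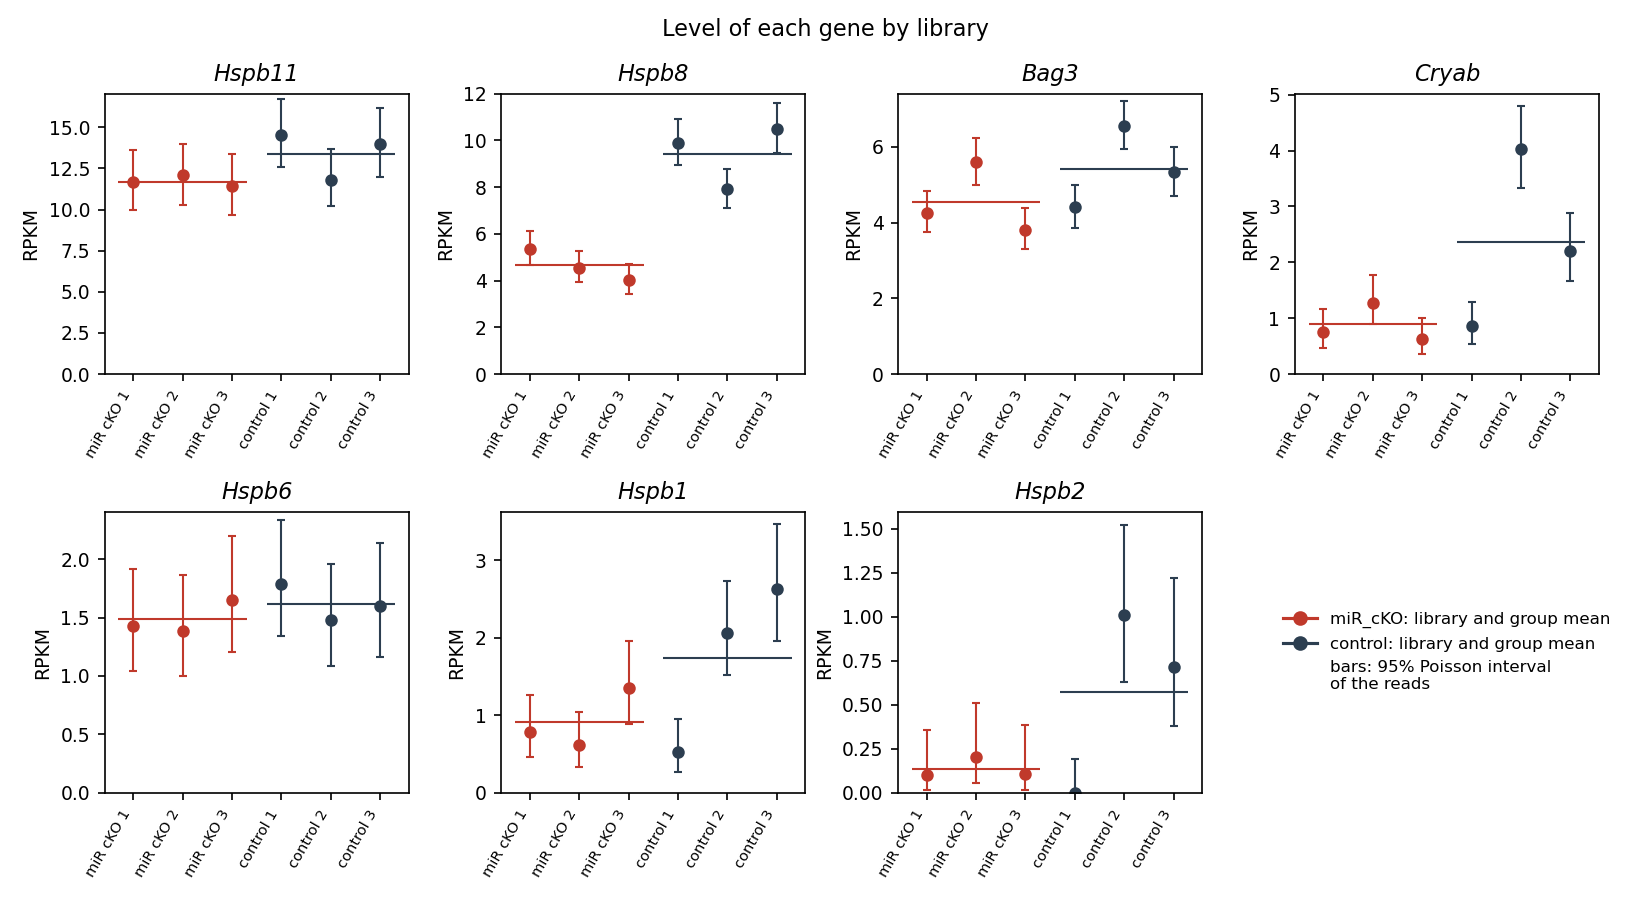
Level of each gene in RPKM (linear axes from 0) in 3 miR_cKO and 3 control libraries, with group means as lines and 95% Poisson intervals of the reads as bars. Hspb8 is the gene whose groups do not overlap, at 4.04 to 5.36 RPKM in miR_cKO and 7.90 to 10.5 RPKM in control, while Cryab, Hspb1 and Hspb2 are high in controls 2 and 3 and low in control 1.

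Bag3, the partner of Hspb8, had overlapping groups. Bag3 (chromosome 7, 128523616 to 128546981, plus strand, ENSMUSG00000030847.8) was at 4.26, 5.59 and 3.81 RPKM in miR_cKO 1 to 3 and at 4.40, 6.55 and 5.32 RPKM in controls 1 to 3. The means were 4.55 ± 0.924 RPKM in miR_cKO and 5.42 ± 1.08 RPKM in control (SD, n = 3 each). On the log2 scale they differed by -0.21 (SE 0.17, limma adjusted p = 1). With 247 reads in miR_cKO 1 and 246 in control 1 these libraries were alike, and the highest level was that of control 2. Without controls 2 and 3 the log2 change was 0.03, so its sign rested on those libraries, and over all alternatives it ran from -0.34 without miR_cKO 2 to 0.03. The ratio of Hspb8 to Bag3, both per length, was 1.26, 0.814 and 1.06 in miR_cKO 1 to 3 and 2.25, 1.21 and 1.97 in controls 1 to 3. On this ratio the groups overlapped, since control 2 was below miR_cKO 1.

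Cryab, Hspb1 and Hspb2 shared a pattern in which controls 2 and 3 were high and control 1 was as low as miR_cKO. Cryab (chromosome 9, 50751325 to 50756636, plus strand, ENSMUSG00000032060.10) encodes alpha-B crystallin, a chaperone of lens, heart and muscle that binds the filament protein desmin. It was at 0.758, 1.28 and 0.624 RPKM in miR_cKO 1 to 3 and at 0.862, 4.02 and 2.21 RPKM in controls 1 to 3. Control 1 lay within the range of miR_cKO, and control 2, at 120 reads against 23 in control 1, was far above it. The log2 change was -0.73 (SE 0.35, limma adjusted p = 1), a difference within the spread of the controls. It was -1.10 without control 1 (SE 0.25, limma adjusted p = 0.388) and -1.14 with a pseudocount of 0.1 in place of 1 (SE 0.54).

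Hspb1 (chromosome 5, 135887919 to 135889563, plus strand, ENSMUSG00000004951.10) encodes a small heat shock protein that binds actin and intermediate filaments and protects axons and muscle under stress. It was at 0.787, 0.610 and 1.35 RPKM in miR_cKO 1 to 3 and at 0.528, 2.06 and 2.63 RPKM in controls 1 to 3, and its lowest library was control 1. The log2 change was -0.44 (SE 0.33, limma adjusted p = 1). It was -0.82 without control 1 and -0.67 with a pseudocount of 0.1. Adult sensory neurons are known for abundant Hspb1, but here each library held 11 to 51 reads of it.

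Hspb2 (chromosome 9, 50751078 to 50752354, minus strand, ENSMUSG00000038086.4) encodes a muscle small heat shock protein that binds the myotonic dystrophy kinase. It had 2, 4 and 2 reads in miR_cKO 1 to 3, or 0.0987, 0.200 and 0.107 RPKM, and 0, 22 and 13 reads in controls 1 to 3, or 0, 1.01 and 0.715 RPKM. For the count of 0 in control 1, the exact 95% Poisson interval reached up to 0.189 RPKM, for counting error only. Hspb2 was left out of the fit by the filter of at least 1 RPKM in 3 libraries. The gene overlaps Cryab on the opposite strand, with the closest protein-coding starts 416 bases apart, and the annotated exons of the pair share 252 bases. The library kit keeps strand, but the sources used here do not say whether the counting used it, so reads of Hspb2 and Cryab may not be fully parted.

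The summed level of 17 skeletal muscle genes was, like these 3 members, high in controls 2 and 3 and low in control 1. This is shown in the plot of members and muscle genes by library. Within miR_cKO the likeness was not general. In miR_cKO 3, where the muscle sum was highest at 46.7 RPKM, Hspb1 was highest (1.35 RPKM) but Cryab was lowest (0.624 RPKM). Actc1, the cardiac actin of embryonic muscle, was at 1.31, 2.27 and 6.09 RPKM in miR_cKO 1 to 3 and at 2.33, 56.3 and 41.2 RPKM in controls 1 to 3. Acta1, the skeletal muscle actin, averaged 23.4 ± 1.08 RPKM in miR_cKO and 30 ± 7.27 RPKM in control, and Myh3, embryonic myosin, 0.612 ± 0.401 and 7.40 ± 6.97 RPKM in the same order (SD, n = 3 each). Of the 17 muscle genes, 9 were tested and 0 passed, with a median log2 change of -1.66. None was at 0 in all libraries. Smooth muscle genes, 5 of 5 measured, summed to 20.9 to 26.9 RPKM in miR_cKO and to 22.0, 47.7 and 44.0 RPKM in controls 1 to 3. Mesenchyme genes, 12 of 12 measured, summed to 205 to 305 RPKM in miR_cKO and 233 to 435 RPKM in control. With the muscle genes as covariate the log2 change was -0.12 for Cryab (SE 0.30) and 0.21 for Hspb1 (SE 0.22). With controls 2 and 3 left out and no filter it was 0.0045 for Cryab and 0.31 for Hspb1, each against control 1 alone, which is assumed to vary like the miR_cKO libraries. The lower means of Cryab and Hspb1 in miR_cKO rested on controls 2 and 3. Control 1, at 0.862 RPKM of Cryab and 0.528 RPKM of Hspb1, was below the miR_cKO means of 0.888 and 0.915 RPKM. The muscle sum was high only in controls 2 and 3, so the covariate comes close to leaving these libraries out. Muscle RNA and any other trait of controls 2 and 3 cannot be told apart. For Hspb2 the fit without controls 2 and 3 says nothing, since control 1 had 0 reads and the change could not have been below 0. The sign for Hspb1 in this fit was fixed too, since control 1, at 0.528 RPKM, lay below every miR_cKO library.

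**Figure D3:**
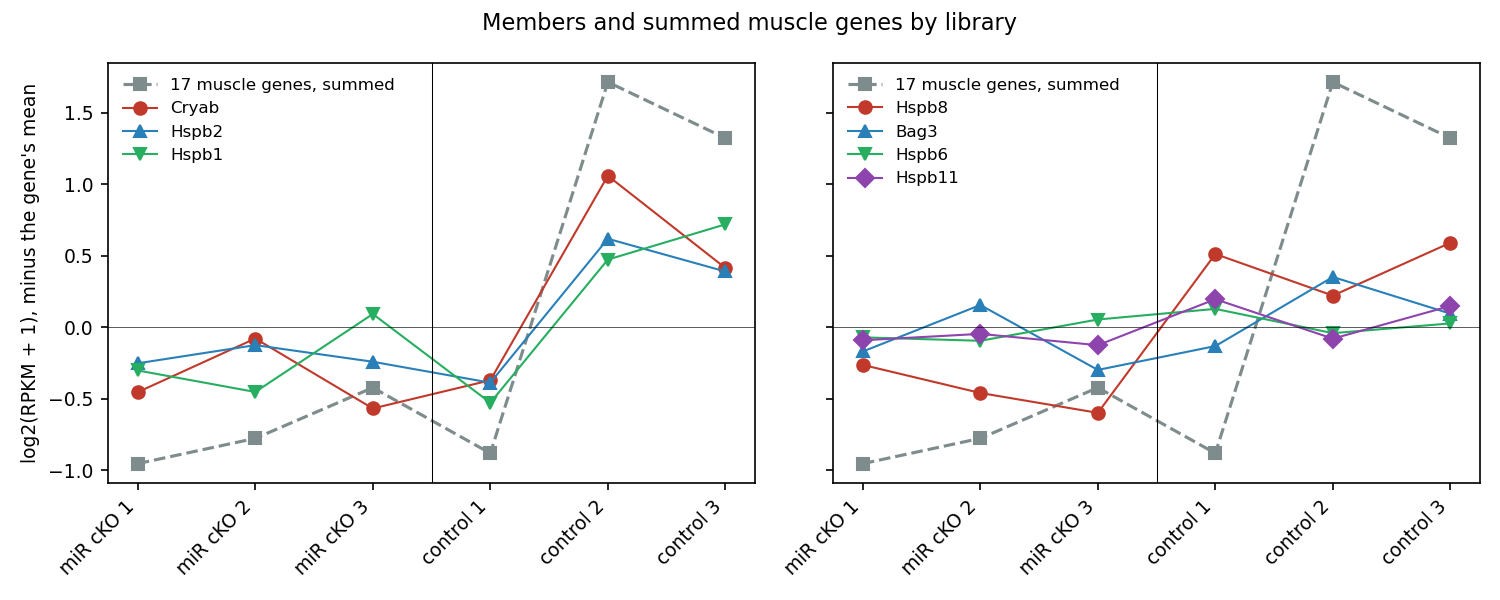
Level of each member and of 17 skeletal muscle genes summed, as log2(RPKM + 1) minus its own mean over the 6 libraries, with miR_cKO left of control. Cryab, Hspb2 and Hspb1 (left panel) are above their means in controls 2 and 3, as the muscle sum is, while Hspb8 (right panel) is above its mean in all 3 controls, control 1 included.

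Hspb6 and Hspb11 were the most even members. Hspb6 (chromosome 7, 30552178 to 30555443, plus strand, ENSMUSG00000036854.14) encodes a small heat shock protein known for its part in smooth muscle relaxation and its binding of 14-3-3 proteins. It was at 1.43, 1.39 and 1.65 RPKM in miR_cKO 1 to 3 and at 1.79, 1.48 and 1.6 RPKM in controls 1 to 3, with 42 to 53 reads in every library. The groups overlapped, and on the log2 scale they differed by -0.07 (SE 0.11, limma adjusted p = 1), with a range of -0.17 to -0.03 over the alternatives. Unlike Cryab, Hspb6 was not higher in controls 2 and 3 than in control 1. Its annotated exons share 122 bases with Proser3 on the opposite strand.

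Hspb11 (chromosome 4, 107253593 to 107279938, plus strand, ENSMUSG00000063172.13) was at 11.7, 12.1 and 11.4 RPKM in miR_cKO 1 to 3 and at 14.5, 11.8 and 14.0 RPKM in controls 1 to 3. Control 2 lay inside the range of miR_cKO. The means were 11.7 ± 0.329 RPKM in miR_cKO and 13.4 ± 1.44 RPKM in control (SD, n = 3 each). On the log2 scale they differed by -0.18 (SE 0.09, limma adjusted p = 1), with a range of -0.29 to -0.12 over the alternatives. Its partner Ift27, a small GTPase with which the protein forms a pair, averaged 14.5 ± 2.24 RPKM in miR_cKO and 13.4 ± 3.29 RPKM in control. Of 17 genes of the complex 0 passed, with a median log2 change of -0.04 and 13 below 0. Ift20 and Ift22, listed as Rabl5, had the highest levels, at 20.6 and 18.3 RPKM in miR_cKO and 19.5 and 18.3 RPKM in control. Ift57 and Ift46 had the largest changes, -0.22 and -0.20, and Ift46 had separate groups, at 16.1 ± 0.340 RPKM in miR_cKO and 18.6 ± 1.02 RPKM in control (SD, n = 3 each).

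Ranked by mean level per length over all libraries, the order was Hspb11 at 12.6 RPKM, Hspb8 at 7.04, Bag3 at 4.99, Cryab at 1.63, Hspb6 at 1.56, Hspb1 at 1.33 and Hspb2 at 0.355 RPKM. Within miR_cKO, Hspb8 and Bag3 did not differ beyond their spread, at 4.65 ± 0.670 and 4.55 ± 0.924 RPKM, whereas in control they were at 9.43 ± 1.36 and 5.42 ± 1.08 RPKM (SD, n = 3 each). Cryab and Hspb1 overlapped each other in both groups. Hspb6 overlapped both in control and lay above both in miR_cKO, at no less than 1.39 RPKM there. The 5 family members Hspb1, Hspb2, Hspb6, Hspb8 and Cryab summed to 8.08 ± 0.340 RPKM in miR_cKO and 15.7 ± 2.37 RPKM in control (SD, n = 3 each). Hspb8 made up 63.5%, 56.7% and 52.0% of this sum in miR_cKO 1 to 3 and 75.7%, 48.0% and 59.5% in controls 1 to 3, so its share overlapped between the groups.

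The remaining genes of the family were close to 0. Hspb3, a muscle member, averaged 0.159 RPKM in miR_cKO and 0.386 RPKM in control, Hspb9, known from testis, 0.230 and 0.449 RPKM in the same order, and Hspb7, known from heart, 0.0167 and 0.0120 RPKM. Odf1, a sperm tail protein, was listed above 0 in miR_cKO 2 alone, and the lens crystallin Cryaa was listed at 0 in all 6 libraries. None of these 5 reached the filter. Hspb9 was lower in every miR_cKO library than in every control, at no more than 0.285 RPKM in miR_cKO and no less than 0.312 RPKM in control. This narrow gap between low levels was not tested.

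No gene of the wider chaperone system passed the test. Heat shock factor Hsf1, the main activator of the heat shock response, averaged 14.6 ± 1.78 RPKM in miR_cKO and 13.9 ± 1.01 RPKM in control, and Hsf2 24.6 ± 3.51 and 23.5 ± 0.741 RPKM in the same order (SD, n = 3 each). Hsf4 and Hsf5 were below 1 RPKM in every library. Among 25 cytosolic and mitochondrial chaperones, 22 were tested, 0 passed, and the median log2 change was 0.03, where that of all tested genes was -0.02. The 2 most abundant were Hspa8, the constitutive Hsp70, at 1119 ± 93.1 RPKM in miR_cKO and 1020 ± 114 RPKM in control, and Hsp90ab1, at 1182 ± 51.3 RPKM in miR_cKO and 1154 ± 50.4 RPKM in control. The largest changes were those of Dnajb5, an Hsp40 co-chaperone, at 17.1 ± 1.41 RPKM in miR_cKO and 13.1 ± 0.379 RPKM in control (log2 change 0.36, limma adjusted p = 0.328), and of Hsph1, an Hsp110 exchange factor, at 69.2 ± 9.86 and 57.4 ± 7.72 RPKM in the same order (SD, n = 3 each). Dnajb5 had separate groups, with miR_cKO above control, opposite to Hspb8.

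Among 15 other BAG proteins and genes of chaperone-assisted autophagy 0 passed, and the median log2 change was -0.07. Flnc, a muscle filamin that is a client of Bag3, had the largest change, -0.64, and like Cryab was low in control 1, at 2.82, 3.25 and 4.07 RPKM in miR_cKO 1 to 3 and 3.16, 6.70 and 8.79 RPKM in controls 1 to 3. Bag2, a co-chaperone that inhibits the ligase Stub1, was at 5.40, 6.73 and 5.70 RPKM in miR_cKO 1 to 3 and at 7.92, 7.55 and 7 RPKM in controls 1 to 3, with separate groups (log2 change -0.29, limma adjusted p = 0.790). The most abundant were Map1lc3b, an autophagosome protein, at 127 RPKM in both groups, and the filamin Flna, at 94.1 and 98.7 RPKM in miR_cKO and control. In all, 0 of 56 tested genes of these lists passed. An unadjusted limma p under 0.05 was found for 3 of them, and for 677 of all 13118 tested genes. Of the 56, 2 (Bag2 and Ift46) had all miR_cKO libraries below all controls, where 6.24% of all tested genes did. Dnajb5 was the 1 gene with all above, and that share was not computed over all genes. The lists had been chosen with earlier results of these data known.

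**Figure D4:**
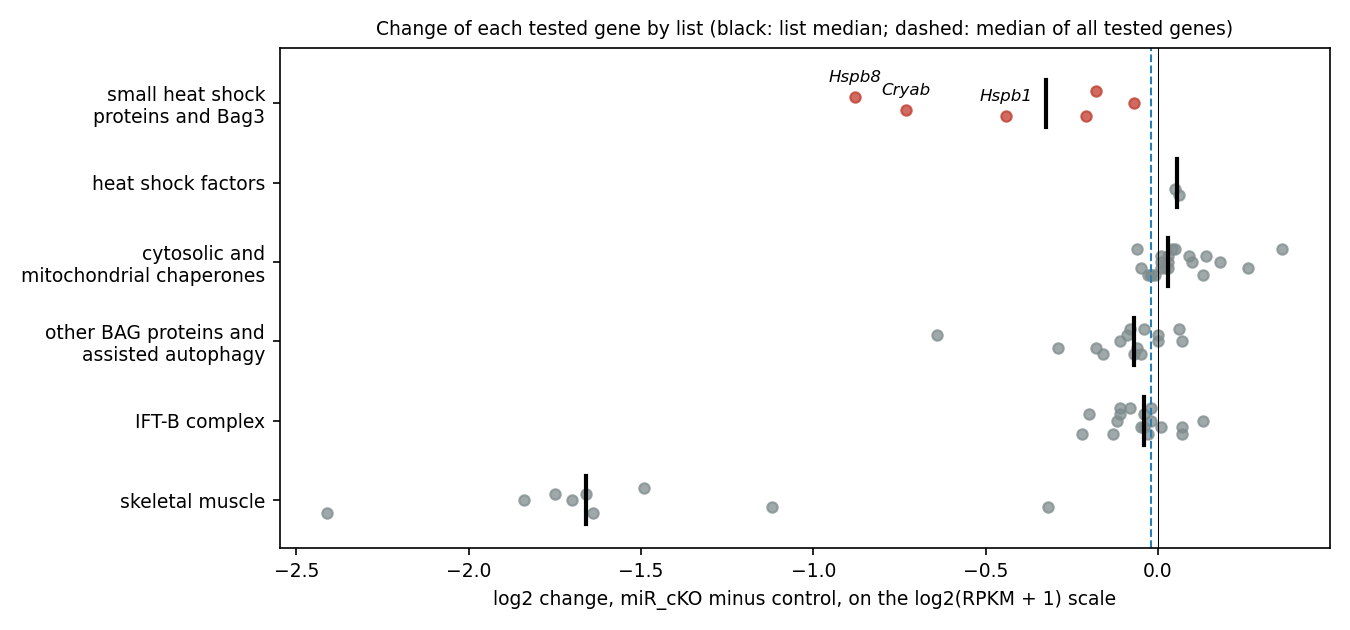
Log2 change, miR_cKO minus control on the log2(RPKM + 1) scale, of each tested gene, by list, with list medians in black and the median of all 13118 tested genes, -0.02, dashed. Hspb8 lies at -0.88 and Cryab at -0.73, the chaperone, BAG and IFT-B lists centre between -0.07 and 0.03, and skeletal muscle genes centre at -1.66.

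The genes whose values over the 6 libraries were most like those of Hspb8 were found among 11915 genes by the root-mean-square difference of log2(RPKM + 1), each gene centred on its own mean. The nearest 4 were the listed copies of 4933409K07Rik, which differed from Hspb8 by 0.116 to 0.125, where Hspb8 itself varied by 0.47 about its mean. These copies are near identical in value, and reads may have been split between them. The fifth was Etv1, an ETS transcription factor of muscle-sensing neurons, with a difference of 0.160. Etv1 was at 6.25, 4.58 and 4.95 RPKM in miR_cKO 1 to 3 and at 10.4, 7.05 and 9.01 RPKM in controls 1 to 3. Control 2 was the lowest control in both genes, which follows in part from picking genes for likeness to Hspb8.

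For Cryab the nearest were Tagap1, Tpm2, Acta2, Tagap and Mir3096b, with differences of 0.144 to 0.255, where Cryab varied by 0.57 about its mean. Tpm2, a muscle tropomyosin, was at 8.21, 11 and 9.94 RPKM in miR_cKO 1 to 3 and at 10.2, 23.8 and 18.6 RPKM in controls 1 to 3. Acta2, smooth muscle actin, was at 16.6, 20.1 and 18.5 RPKM in miR_cKO 1 to 3 and at 16.7, 37.7 and 35.5 RPKM in controls 1 to 3. In both, control 1 was at the level of miR_cKO, as it was for Cryab. The same held for Tagap1, at 7.15 RPKM in control 1 and 6.82 to 11.1 RPKM in miR_cKO. It held for Tagap, at 5.43 RPKM in control 1 and 5.04 to 6.80 RPKM in miR_cKO. Mir3096b went the other way, with 2.48 RPKM in control 1 and no more than 2.07 RPKM in miR_cKO. These genes were picked for likeness to Cryab, so a shared pattern follows in part from that choice. Likeness over 6 libraries shared with all other genes is a description of these libraries.

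**Figure D5:**
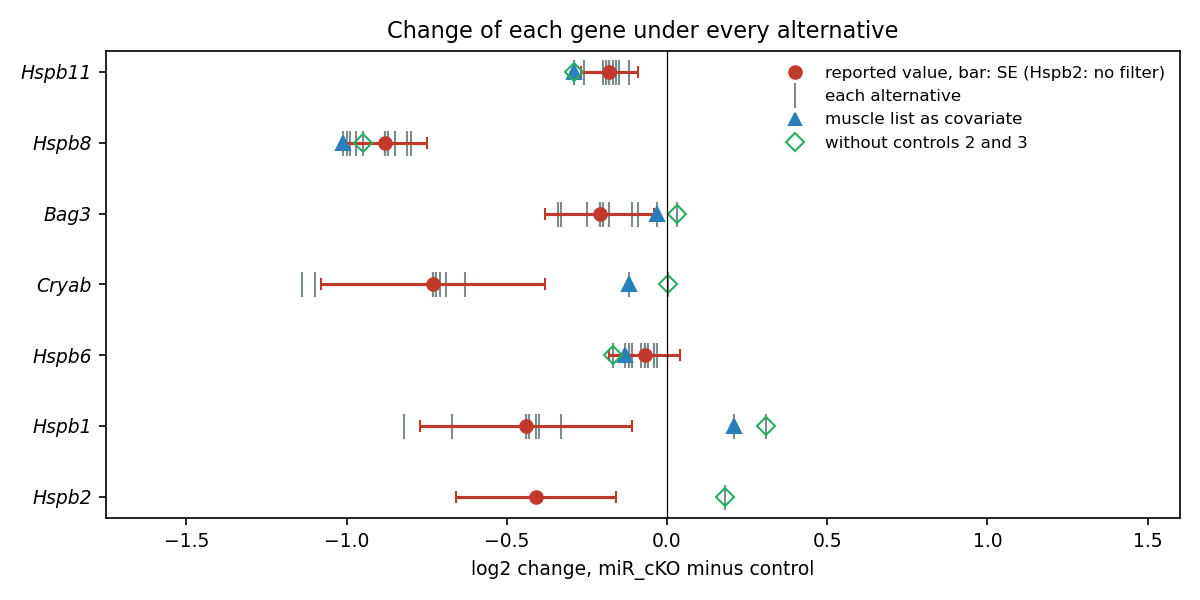
Log2 change of each member, miR_cKO minus control, as reported (red, bar: SE; Hspb2 without a filter), under each alternative (grey ticks), with the muscle genes as covariate (blue triangles) and without controls 2 and 3 (green diamonds). Hspb8 stays between -1.01 and -0.80, while Cryab moves to -0.12 with the covariate, and Cryab, Hspb1 and Bag3 lie at or above 0 without controls 2 and 3. The values of Hspb2 and Hspb1 there could not be below 0, since control 1 had 0 reads of Hspb2 and less Hspb1 than any miR_cKO library.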

How the data were processed

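Polyadenylated RNA of 6 libraries, 3 miR_cKO and 3 control, was sequenced after Trizol extraction and a stranded preparation, per the labels' protocols. The submitters' processing notes name Bowtie and the mm10 build. The aligner's version, counting tool and annotation were not given in the sources used here. What the authors deposited was 1 table of 24264 genes with decimal commas and no named unit. The deposited values were read as RPKM, since each gene's values were whole multiples of a smallest step, and longer transcripts had smaller steps (Spearman rho -0.901 over 855 genes, described across genes). FPKM would look the same. No column of values was left unused (0).

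For 94.2% of the tested genes, and for each of the 7 members, every value came out as a whole read within 0.01 read plus an allowance for rounding that grew with the value. The steps with transcript lengths gave the depths. Intervals are exact 95% Poisson intervals and cover counting error only. No library was a copy of another in its group (chi-square per gene 10.8 to 24.4).

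Values were taken as log2(RPKM + 1), genes with 1 RPKM or more in at least 3 libraries (13118) were kept, and miR_cKO was set against control in limma 3.58.1 (R 4.3.3) (empirical Bayes with trend and robust settings, Benjamini-Hochberg over all tested genes, threshold 0.05). This scale understates changes of low genes. The fit was tested on simulated data.

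Members and lists were chosen with earlier results of these data known. The naming rule took the 7 members, the deleted genes, the remaining family members, heat shock factors, Ift27, the 2 most abundant and 2 most changed genes of each pathway list and of skeletal muscle, any gene past the threshold in them, and the 5 genes (mean of 2 RPKM or more) most like Hspb8 and Cryab. Listed symbols were matched through RefSeq synonyms where needed. Motifs and seed matches were searched with Python 3.11.15, with sequences from RefSeq (GRCm38.p6) and GENCODE M21. Alternatives were 2 filters, a pseudocount of 0.1, 3 scalings, the variance model, a replicate block, a muscle covariate and libraries left out.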

Additional observations from a re-analysis of the deposited data

How the results depend on the processing

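Over 17 alternatives, 0 members and 0 pathway genes passed in each of them, and the log2 change of Hspb8, Hspb6 and Hspb11 stayed below 0 in each fit that tested them. For Hspb8 this sign was fixed in every fit that left out libraries, since every miR_cKO library lay below every control. The sign turned for Hspb1 with the muscle genes as covariate (0.21) and for Bag3 without controls 2 and 3 (0.03). A fit chosen after seeing the data left out those controls and the filter. In it the sign turned for Hspb1 (0.31), Cryab (0.0045), Hspb2 (0.18) and Bag3 (0.03). For Hspb2, at -0.41 with all libraries and no filter, the turned sign carries no information, because the remaining control had 0 reads and the change could not be below 0. The turned sign of Hspb1 in that fit carries none either, because the remaining control, at 0.528 RPKM, lay below every miR_cKO library. The number of genes called over all genes was 8; it was 0 when libraries were scaled by the upper quartile or by totals leaving out haemoglobin and mitochondrial genes, with limma without trend or robust settings, the replicate block, the muscle covariate, and without controls 2 and 3 with or without the filter, where limma gave 698, 681, 709, 847, 706, 395 and 694 genes with an unadjusted p under 0.05. It was 2 with median centring, and 0 to 2 with a single library left out, where limma gave 440 to 1023 genes at an unadjusted p under 0.05; the cause was not tested. Deviations of same-numbered libraries correlated at 0.36, 0.33 and -0.22, and those of differently numbered libraries at -0.70 to 0.52. With 3 libraries a group, these values cannot decide whether the replicate numbers pair the libraries. Hspb1, with 11 to 51 reads a library, and Hspb2, with at most 22, are limited by depth. Where leaving out a library put Hspb1 or Cryab under the filter, no value was given.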

Other observations

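The genes given here lie outside the naming rule. Hspbap1, a protein that binds Hspb1, averaged 2.85 ± 0.0940 RPKM in miR_cKO and 2.89 ± 0.196 RPKM in control (SD, n = 3 each). Hspbp1, an exchange factor of Hsp70, averaged 14.2 ± 1.90 RPKM in miR_cKO and 15.9 ± 1.88 RPKM in control (SD, n = 3 each), and its groups overlapped. Wnt1, the gene that lends its promoter to the Cre, had 0.319, 1.88 and 4.56 RPKM in miR_cKO 1 to 3 and 1.38, 0.261 and 0.147 RPKM in controls 1 to 3, and these groups overlapped.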
